A study of Mus musculus with 6 samples.

Results

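Rbm3 and Cirbp encode the cold-inducible RNA-binding proteins of mammals, and their expression was followed in the hearts of mice with chronic kidney disease (CKD). They are 2 of the 19505 genes that the arrays named. The pair was chosen from earlier results of the same contrast, CKD against sham, on these arrays, so its levels and differences are a description and carry no test. Gene expression was measured with Affymetrix Clariom S mouse arrays in the hearts of 3 CKD and 3 sham Balb/c mice, 1 array per mouse, from 250 ng of total RNA. CKD mice had been through electrocoagulation of most of the right renal cortex and, 2 weeks later, removal of the left kidney (5/6 nephrectomy), whereas sham mice had only the abdomen opened. The methods describe male mice operated at 8 weeks of age and housed at 25 °C with 12 h of light, and they describe several sets of sham and CKD mice. Which of these sets gave the arrays, the hour at which hearts were taken and the body temperature of the mice are not given in the sources used here. The methods speak of heart samples and do not say which part of the heart gave the RNA. Group thus stands for the whole operated animal, and a sample of mixed heart tissue does not tell a change within a cell from a change in the mix of cells.

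Both proteins carry an RNA recognition motif followed by a glycine-rich tail and belong to the same family as the hnRNP proteins. In cultured mammalian cells their transcripts rise when temperature falls by a few degrees and fall under heat, and in mouse tissues they follow the daily rhythm of body temperature. CIRBP binds the transcripts of clock genes and alters the choice of polyadenylation site, RBM3 is known for supporting translation and synapse repair in cooled neurons, and CIRBP released from stressed cells acts outside the cell on the receptor TLR4 and its partner MD-2.

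The start of Cirbp is shown because its upstream region holds the letters of a published element, TCCCCGCC, called the mild cold-responsive element. Of the 2 genes, 1 matched the RefSeq promoter sequences used here (build GRCm38.p6), with 2 windows of 250 bases upstream of annotated starts. The first window lies at chr10:80167589-80167838 on the + strand, upstream of the gene, and the match to TCCCCGCC is in capitals.
Cirbp promoter: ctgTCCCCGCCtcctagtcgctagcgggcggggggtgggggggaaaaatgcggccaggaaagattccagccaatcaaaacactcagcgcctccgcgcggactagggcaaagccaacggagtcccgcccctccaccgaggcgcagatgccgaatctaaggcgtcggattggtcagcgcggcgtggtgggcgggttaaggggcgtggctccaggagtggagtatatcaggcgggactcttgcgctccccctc
The element stood once in this window, 247 to 240 bases before the start site. Both strands were searched, and 4.64% of all 32851 promoter windows of this length held the same letters. The GC box core GGGCGG was found 3 times in this window (32.7% of all windows held it at least once) and CCAAT was found 2 times (33.8% of all windows). The E-box CACGTG, which clock factors bind, was in 6.02% of all windows and was not among the letters of this one, and the same held for the heat shock element core GAANNTTC, in 6.69% of all windows. No match overlapped another. The window was 65.6% G and C, against a median of 52.4% over all windows. The second window, chr10:80167921-80168170 on the + strand, held GGGCGG 4 times and none of the other letters searched. These matches describe the sequence, and binding was not measured.

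Rbm3 (Entrez 19652, on chromosome X) was read by 1 probe set. Levels are log2 values after robust multiarray averaging, a scale on which 1 unit is a doubling of signal. Its log2 level was 15.45, 16.05 and 15.83 in the 3 CKD hearts, against 14.07, 12.40 and 12.38 in the 3 sham hearts. All CKD hearts lay above all sham hearts, with 1.38 between the lowest CKD and the highest sham array, and sham 1 stood well above the other sham arrays. The mean was 15.78 ± 0.30 in CKD hearts and 12.95 ± 0.97 in sham hearts (SD, n = 3 each). The difference, CKD minus sham, was 2.83 on the log2 scale (SE 0.43), which is 7.09-fold. By mean level the gene was at the 97.4 percentile of all genes, so it was read from a bright probe set.

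Cirbp (Entrez 12696, on chromosome 10) was also read by 1 probe set. Its log2 level was 8.18, 8.87 and 9.32 in CKD hearts, against 6.97, 6.29 and 6.44 in sham hearts. The groups again did not overlap, with a gap of 1.21, and sham 1 was again the highest sham array. The mean was 8.79 ± 0.57 in CKD hearts and 6.57 ± 0.36 in sham hearts (SD, n = 3 each), a difference of 2.22 (SE 0.31) or 4.67-fold. Its level was at the 72.3 percentile of all genes.

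**Figure D1:**
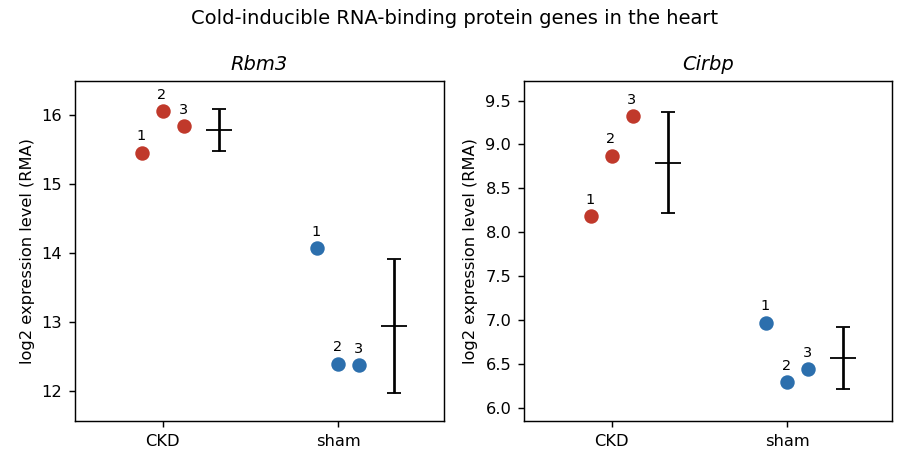
Log2 expression level of Rbm3 (left panel) and Cirbp (right panel) in each heart, with CKD left of sham. Each point is 1 array with its replicate number, bars give the mean ± SD, and in both panels the lowest CKD heart lies above the highest sham heart, by 1.38 for Rbm3 and 1.21 for Cirbp.

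The pair did not have the same order within CKD hearts: Rbm3 was highest in CKD 2 and Cirbp in CKD 3. The spread of Rbm3 was wider among sham hearts (SD 0.97 against 0.30 in CKD hearts), and that of Cirbp was wider among CKD hearts (SD 0.57 against 0.36 in sham hearts). The log2 difference of Rbm3 exceeded that of Cirbp by 0.60, which was not tested. With 1 array left out at a time, the Rbm3 difference lay between 2.54 (without sham 3) and 3.39 (without sham 1), and the Cirbp difference between 1.96 (without CKD 3) and 2.53 (without CKD 1). Rbm3 in the nearest pair of arrays across the groups, CKD 1 and sham 1, still differed by the gap of 1.38.

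Among all 19505 genes, 12 had a larger log2 difference than Rbm3 and 22 a larger one than Cirbp. A gene is said to pass the criterion where its fold change was over 1.5 and its unadjusted limma p under 0.05, the limits given in the methods. Of all genes, 610 were higher in CKD hearts by this criterion (3.13%) and 623 lower (3.19%), 6.32% in either direction. Both Rbm3 and Cirbp were among the 610, and both were among the genes whose CKD arrays all lay above the sham arrays, 6.93% of all genes. As the pair was chosen on this contrast, nothing is read from that. The median log2 difference of all genes was -0.0033, the median of its size was 0.19, and the median SE was 0.23. After Benjamini-Hochberg adjustment over all genes, 2 genes had an adjusted p under 0.05 in limma, the lowest being 0.0374, and 1783 had an unadjusted p under 0.05. Those genes were Ifi207 and Inmt, named here after their values were seen. Every gene said below to pass the criterion therefore failed the adjusted limit.

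**Figure D2:**
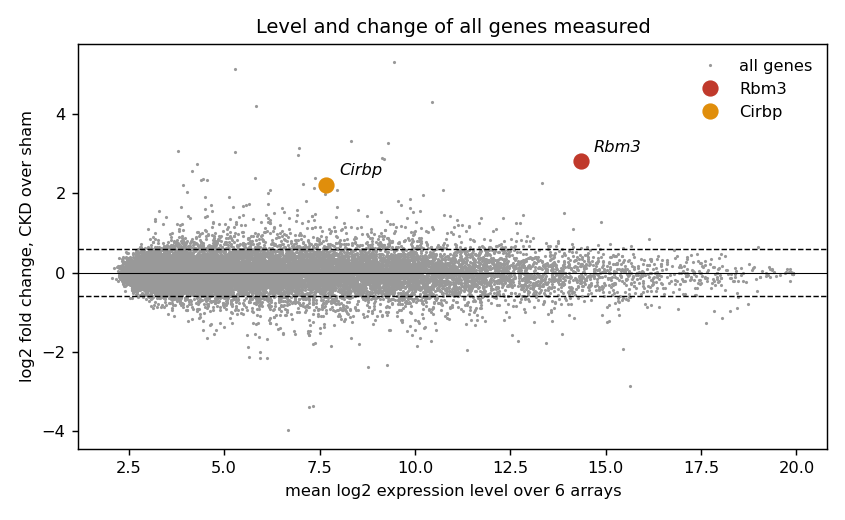
Mean log2 level over 6 arrays (horizontal) and log2 difference, CKD minus sham (vertical), of all 19505 genes, with Rbm3 and Cirbp marked and dashed lines at a fold of 1.5 either way. Rbm3 lies at 2.83 and Cirbp at 2.22, while the median of all genes is -0.0033.

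The adjacent genes did not share the size of these differences. Of the 5 measured genes on each side of Rbm3 on chromosome X, in the gene order of GRCm38.p6, none was higher by the criterion, and their log2 differences ran between -0.59 (Tbc1d25) and 0.39 (Wdr13). Tbc1d25 was lower, with an SE of 0.26 and a limma adjusted p of 0.539, and it missed the criterion in 5 of the 6 fits that left out 1 array, the exception being the one without sham 1. On chromosome X as a whole, 28 of 798 genes were higher (3.51%) and the median difference was 0.0033.

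Around Cirbp on chromosome 10, the differences of the 5 measured genes on each side ran between -0.99 and 0.16, and none was higher. Cbarp, which encodes a regulator that binds a subunit of calcium channels and lies on the side before the Cirbp start, had levels of 6.08, 6.49 and 6.86 in CKD hearts, against 7.89, 7.38 and 7.14 in sham hearts. It passed the criterion as lower, by -0.99 (SE 0.27, limma adjusted p = 0.346), which is the opposite sign to Cirbp. Over chromosome 10, 31 of 919 genes were higher (3.37%), and the median difference was 0.0033.

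The genes most like each of the pair were sought by Pearson's correlation of log2 levels over the 6 arrays. The search covered 9430 genes with a mean level not below the median, after a filter on gene names described with the processing. The 6 points fall in 2 groups that share the CKD difference, so high values reflect that difference and describe these arrays only. Rbm3 and Cirbp correlated with r = 0.957, and by that value Cirbp was the 35th gene for Rbm3 and Rbm3 the 51st for Cirbp. Closest to Rbm3 were Pigp (r = 0.994), Fam214a (0.988), Zfp609 (0.985), Capn7 (0.983) and Hjurp (0.983). Of these, Hjurp, which encodes the chaperone that places the centromere histone CENP-A, had the widest range, with 8.03, 8.38 and 8.86 in CKD hearts, against 7.13, 6.03 and 5.72 in sham hearts. Pigp, part of the enzyme that begins the GPI anchor, moved over a smaller range, with 13.75, 14.02 and 13.91 in CKD hearts, against 13.52, 13.08 and 13.03 in sham hearts. Both had sham 1 as the sham heart nearest to CKD, as Rbm3 did. Farthest from Rbm3 were Etv3 (r = -0.994), Smpd1 (-0.991) and Endog (-0.991). Etv3, a transcriptional repressor of the ETS family, was 5.29, 5.24 and 5.27 in CKD hearts, against 5.74, 6.10 and 6.21 in sham hearts.

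Closest to Cirbp were Abca6 (r = 0.990), Man1a2 (0.990), Flcn (0.987), Cd200 (0.986) and Fam151b (0.982), with log2 differences of 1.81, 1.16, 0.62, 0.95 and 0.71 in that order. Abca6, a membrane transporter of the ABC family, was 9.81, 10.46 and 11.11 in CKD hearts, against 9.08, 8.50 and 8.37 in sham hearts. It had CKD 3 as its highest array, as Cirbp did. Farthest were Elovl1 (r = -0.998), Csrp3 (-0.994) and Maf1 (-0.993). Csrp3, which encodes the muscle LIM protein of the cardiac Z-disc, was 17.70, 17.52 and 17.43 in CKD hearts, against 17.85, 18.00 and 17.99 in sham hearts, so its mirror-image order covered a range of well under 1 log2 unit. None of the 5 highest or 3 lowest genes of Rbm3 was among those of Cirbp.

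**Figure D3:**
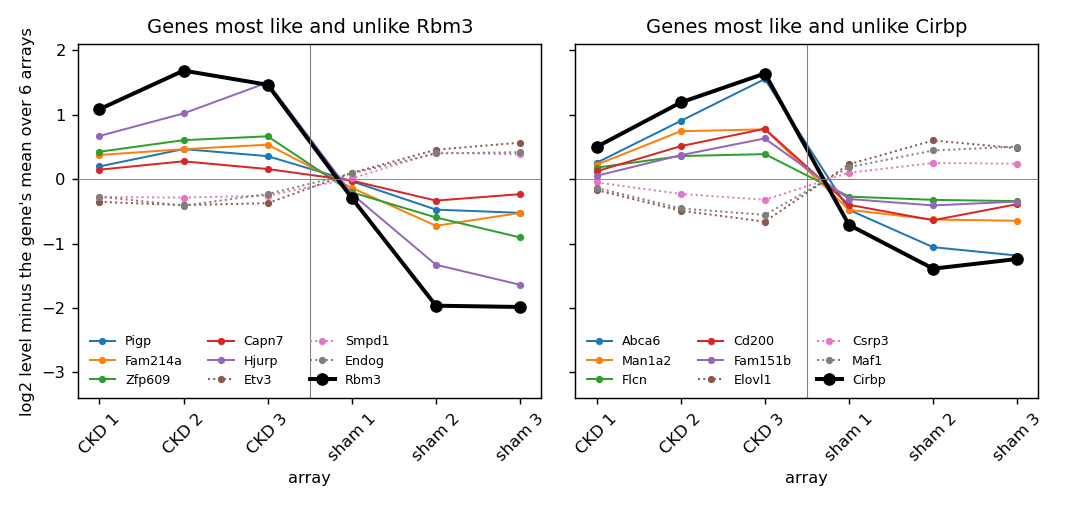
Log2 level minus the gene's mean over 6 arrays, for Rbm3 (left) and Cirbp (right) in black, with CKD arrays left of sham arrays. Solid lines are the 5 most correlated genes of each, and dotted lines the 3 with the most negative correlation. Lines join the arrays only to make each gene readable, and the black line spans a wider range than most of the genes that share its order.

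The gene lists that follow were, like the pair, chosen with earlier results of these data known, so their counts and ranks are a description. Of the RNA-binding relatives, 38 of 42 listed hnRNP and related proteins with RNA recognition motifs were measured. By the criterion 4 were higher and 1 lower, where 3.13% of all genes were higher and 3.19% lower. Their median difference was 0.25, against -0.0033 over all genes, and 29 of the 38 had a positive difference. The mean level of the list was 10.25 to 10.29 in CKD hearts, against 9.97 to 10.08 in sham hearts, which do not overlap. Of single genes, 6.93% did not overlap with CKD higher, and no such share was computed for list means. Hnrnph2, a splicing regulator, was 11.53, 11.03 and 10.87 in CKD hearts, against 10.51, 10.25 and 10.40 in sham hearts, a difference of 0.76 (SE 0.22, limma adjusted p = 0.378). The other members that were higher were Hnrnpd (0.69), which controls decay of AU-rich transcripts, Taf15 (0.68), an RNA-binding factor of the transcription machinery, and Msi2 (0.67), a translational regulator. Hnrnpc was lower by -0.59. Hnrnph1 differed by -0.08 and did not pass. The largest of these is thus well below 2.22, the difference of Cirbp. The count of 5 fell to 3 without CKD 1 and to 2 without sham 2, and stood at 8 without CKD 2. Each of the 5 missed the criterion in at least 1 fit that left out an array, at 0.56 without CKD 1 for Hnrnph2 and for Hnrnpd, 0.48 without CKD 1 for Taf15, 0.54 without sham 2 for Msi2 and -0.50 without CKD 1 for Hnrnpc.

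Splicing factors of the SR class and the CLK kinases were listed because CLK activity responds to body temperature in mice. Of 19 measured genes, 4 were higher (3.13% of all genes were) and 0 lower (3.19% of all genes), with a median difference of 0.12. Clk4, which phosphorylates SR proteins, was 12.35, 12.68 and 13.01 in CKD hearts, against 12.04, 12.11 and 11.92 in sham hearts, a difference of 0.66 (SE 0.22, limma adjusted p = 0.440). Clk1 differed by 0.63, Srsf1 by 0.65 and Srsf9 by 0.59, and Srsf5 differed by 0.27 without passing. Their calls rested on single arrays: the count was 1 without CKD 2, CKD 3 or sham 2 and 2 without sham 3, and Clk4 itself missed the criterion at 0.49 without CKD 3.

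None of the 7 measured proteins with a cold shock domain, a family separate from Rbm3 and Cirbp in spite of its name, passed the criterion at an unadjusted p under 0.05 and a fold over 1.5, and their median difference was 0.04. Ybx1, a major mRNA packaging protein, was 16.73, 16.70 and 16.79 in CKD hearts, against 16.35, 16.53 and 16.54 in sham hearts, a difference of 0.27 (SE 0.18, limma adjusted p = 0.711). Ybx3 differed by -0.56. The count was 1 without CKD 1, sham 1 or sham 3. Stress granule proteins, with which CIRBP gathers in stressed cells, gave 0 of 20, with a median of 0.01, and G3bp1, the nucleator of the granule, differed by -0.49 (limma adjusted p = 0.497). Here the count was 2 without CKD 2 or sham 1 and 1 without CKD 3. Over all genes 6.32% passed in either direction, the share to set beside the counts of both lists.

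Of 18 measured genes known as regulators or targets of CIRBP and RBM3, 1 was higher, 1 lower, and the median difference was 0.01. Over all genes 3.13% were higher and 3.19% lower. Ntrk2, whose signalling induces RBM3 in cooled mouse neurons, was 3.55, 4.29 and 4.37 in CKD hearts, against 3.45, 3.07 and 3.35 in sham hearts, a difference of 0.78 (SE 0.25, limma adjusted p = 0.437) from a dim probe set. Txn1, whose transcript CIRBP binds, was lower by -0.81 (SE 0.27, limma adjusted p = 0.446), with 14.44, 15.23 and 14.35 in CKD hearts, against 15.20, 15.62 and 15.62 in sham hearts. Both missed the criterion without CKD 3 (0.63 for Ntrk2 and -0.65 for Txn1) and without sham 2 (0.67 and -0.74), and Txn1 also without sham 3 (-0.74). Rtn3, the RBM3 target of synapse repair in mice, differed by -0.24, and Trpv4, a warmth-gated channel, by -0.28, neither passing.

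The receptors and adaptors through which extracellular CIRBP acts were all measured. Of these 12, 2 were lower (3.19% of all genes were) and 0 higher (3.13% of all genes), with a median of -0.21. Ly96, which encodes MD-2, was 11.06, 10.36 and 10.68 in CKD hearts, against 11.33, 11.78 and 11.61 in sham hearts, a difference of -0.87 (SE 0.23, limma adjusted p = 0.346). Myd88, the adaptor below TLR4, was 6.5, 5.87 and 6.08 in CKD hearts, against 6.89, 7.13 and 7.15 in sham hearts, a difference of -0.91 (SE 0.22, limma adjusted p = 0.336). Tlr4 itself differed by -0.02 (SE 0.29). Ly96 and Myd88 are expressed in macrophages, and 4 of 11 measured macrophage markers were also lower (Adgre1, C1qb, Cx3cr1 and Fcgr1), the mean level of that list being 7.68 to 8.67 in CKD hearts, against 7.94 to 9.26 in sham hearts. Adgre1 and C1qb missed the criterion without CKD 2 (-0.81 and -1.08) or sham 2 (-0.76 and -1.16), and C1qb also without CKD 3 (-1.27) or sham 3 (-1.24), and the count stood at 8 without sham 1. The part of macrophages in the differences of Ly96 and Myd88 was not tested.

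Heat shock genes, which respond to temperature in the opposite sense to Rbm3 and Cirbp in cultured cells, gave the highest count of lower genes among the lists. Of 27 measured genes, 7 were lower and 1 higher, where 3.19% of all genes were lower and 3.13% higher. The median difference was -0.48, and 4 of 27 had a positive difference. Hsph1, a nucleotide exchange factor of the HSP70 system, was 8.57, 8.60 and 8.64 in CKD hearts, against 9.41, 10.52 and 10.18 in sham hearts, a difference of -1.43 (SE 0.28, limma adjusted p = 0.330). Its sham 1 level was the nearest to CKD hearts, as for Rbm3 and Cirbp with the sign turned. This place of sham 1 was not particular to heat shock genes. In the mean levels of the macrophage, hypoxia, atrial and red cell lists, sham 1 also lay toward CKD hearts from sham 2 and sham 3. In that of the adipocyte list it did not. Hspb6, a small heat shock protein of heart muscle, was lower by -1.26 (SE 0.23), Ahsa2, a relative of an HSP90 activator, by -1.10 (SE 0.22) and Serpinh1, the collagen chaperone, by -1.44 (SE 0.36). These 4 passed in each of the 6 fits that left out 1 array. Hspa1b differed by -0.97, Cryab by -0.97, Chordc1 by -0.70 and Dnaja4, the higher one, by 0.60, and each of these missed the criterion when some single arrays were left out. Without sham 3, for example, Hspa1b differed by -0.58, Cryab by -0.77, Chordc1 by -0.73 and Dnaja4 by 0.56. Hspa1a, the other inducible HSP70 gene, differed by -0.59 and did not pass, and the coding sequences of Hspa1a and Hspa1b are nearly identical, so their probe sets may share signal. The mean level of the list was 10.94 to 11.03 in CKD hearts, against 11.11 in sham 1 and 11.62 and 11.59 in sham 2 and sham 3. The count of 8 stood at 13 without sham 1, and at 5 without sham 2 and 4 without sham 3. Hsf1, which encodes the main heat shock factor, was not analysed here.

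**Figure D4:**
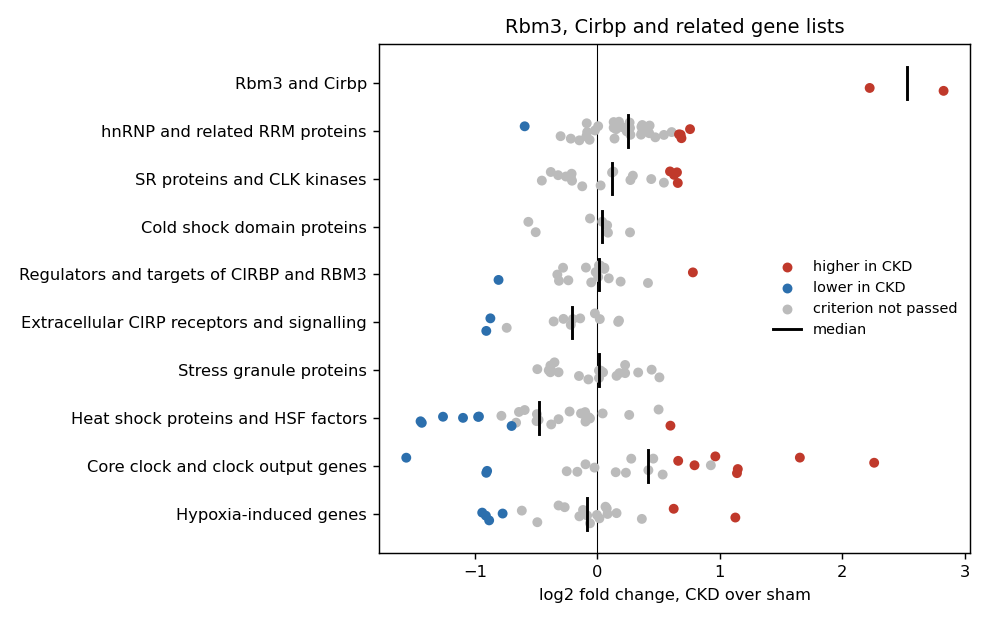
Log2 difference, CKD minus sham, of Rbm3, Cirbp and each measured gene of the 9 related lists, 1 point a gene, coloured where the gene passed the criterion (fold over 1.5 and unadjusted limma p under 0.05), with a bar at each median. Rbm3 (2.83) lies to the right of all listed genes and Cirbp (2.22) to the right of nearly all, with Dbp (2.26) between them. Heat shock genes lie mostly left of 0.

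Clock genes and their outputs gave the highest share of calls among the 9 lists, with 10 of 21 measured genes past the criterion, 7 higher and 3 lower, and a median of 0.42. Of all genes, 6.32% passed. Dbp, a transcription factor driven directly by the clock, had a difference nearest to that of the pair. Its level was 13.90, 14.07 and 15.43 in CKD hearts, against 12.80, 12.05 and 11.77 in sham hearts, a difference of 2.26 (SE 0.42, limma adjusted p = 0.285). Nr1d1 and Nr1d2, the REV-ERB repressors, were higher by 1.65 (SE 0.42) and 1.14 (SE 0.25), Per3 by 1.15 (SE 0.34) and Cry2 by 0.79 (SE 0.20). Arntl, which encodes BMAL1, was lower, with 7.0, 6.31 and 6.04 in CKD hearts, against 7.98, 8.21 and 7.84 in sham hearts, a difference of -1.56 (SE 0.27, limma adjusted p = 0.285). Its partner gene Npas2 was lower by -0.90 (SE 0.19). These 7 genes, and Hlf (0.96), an output factor related to Dbp, passed in each of the 6 fits that left out 1 array. Usp2, which was 0.66 higher, missed the criterion without CKD 1 (0.66), CKD 3 (0.42), sham 1 (0.52) or sham 3 (0.70). Nfil3, a repressor that acts against DBP, was lower by -0.91 and missed it without CKD 1 (-0.76), CKD 3 (-0.67), sham 2 (-0.75) or sham 3 (-0.89).

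Clock differed by -0.16, Per2 by 0.42 and Cry1 by -0.25, and none of these 3 passed. The transcripts that CIRBP is known to bind in mouse cells include Clock, whose levels of 14.03, 13.50 and 13.48 in CKD hearts, against 13.62, 13.87 and 14.01 in sham hearts, overlapped. The mean level of the clock list was 8.01 to 8.57 in CKD hearts, against 7.76 to 7.90 in sham hearts. Rbm3, Cirbp, Dbp and Arntl all vary over the day in mouse tissues, and the hour of collection of each heart is not given, so a difference of hour and the operation cannot be told apart here.

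Hypoxia, which induces both Rbm3 and Cirbp in cultured cells, was followed with 21 measured genes, of which 2 were higher and 4 lower, with a median of -0.08. Over all genes 3.13% were higher and 3.19% lower. Pfkfb3, a glycolytic regulator, was higher by 1.13 (SE 0.28, limma adjusted p = 0.339), and Egln3, an oxygen sensor of the HIF pathway, lower by -0.91 (SE 0.25, limma adjusted p = 0.346). Of the others past the criterion, Ndrg1 was higher by 0.62 and Hmox1, P4ha2 and P4ha1 lower by -0.94, -0.88 and -0.77. Only Pfkfb3 and Egln3 of these passed in all 6 fits without 1 array, and the count of 6 stood at 3 without CKD 3 or sham 2 and 2 without sham 3.

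The samples carried heart muscle, with 12 of 12 cardiomyocyte markers measured, none past the criterion (1 without CKD 2), and a mean level of 18.06 to 18.36 in CKD hearts, against 18.17 to 18.25 in sham hearts. Some markers of other cells passed the criterion. Of 9 atrial muscle markers 3 were higher (Myl4, Sln and Bmp10), where 3.13% of all genes were, with a mean level of 9.08 to 11.91 in CKD hearts, against 7.13 to 9.64 in sham hearts. The atrial mean of sham 1 (9.64) lay above those of CKD 1 (9.08) and CKD 2 (9.40), whereas Rbm3 and Cirbp had no such overlap. As for Rbm3 and Cirbp, the atrial mean was higher in sham 1 than in sham 2 (7.97) and sham 3 (7.13). It was highest in CKD 3 (11.91), as Cirbp was. Myl4, the atrial light chain, was 11.01, 11.53 and 15.29 in CKD hearts, against 10.91, 7.72 and 6.29 in sham hearts. None of the 3 passed with trend and robust eBayes or with each gene tested alone, and Sln, 3.31 higher over all arrays, missed the criterion without CKD 3 (1.81), sham 2 (3.03) or sham 3 (2.36). The count of higher atrial markers was 2 when any 1 of these arrays was left out, 7 without CKD 1 and 5 without sham 1. Of the other lists, 2 of 11 adipocyte, 2 of 8 smooth muscle, 1 of 5 B and plasma cell and 1 of 2 red cell markers were higher, and 0 of 7 fibroblast and 0 of 7 endothelial markers passed. These counts also moved with single arrays. The adipocyte count was 1 without CKD 3, sham 1 or sham 3, where Car3 was lost, 5 without CKD 1 or CKD 2 and 4 without sham 2. The smooth muscle count was 1 without CKD 3, sham 2 or sham 3, where Myh11 was lost, and 4 without CKD 1. The red cell count was 0 without CKD 3, sham 2 or sham 3, where Alas2 was lost, and 2 without CKD 1. The fibroblast count was 1 higher without CKD 1, CKD 3 or sham 1, and the endothelial count 1 lower without CKD 3 or sham 3. Jchain, the B and plasma cell marker, was 3.05 higher and passed in all 6 such fits. The mean level of the adipocyte list was 7.40 to 8.51 in CKD hearts, against 6.95 to 7.50 in sham hearts, and that of the smooth muscle list 10.85 to 11.45 in CKD hearts, against 10.40 to 10.74 in sham hearts. The part of these cells in the differences of Rbm3 and Cirbp was not tested.

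Genes of the Y chromosome also differed in their group means, although the methods describe male mice. All 3 measured ones were higher by the criterion, where 3.13% of all genes were. Unlike for Rbm3 and Cirbp, the groups overlapped in each of the 3, with sham 1 above CKD 2. Eif2s3y was 4.02, 4.04 and 7.90 in CKD hearts, against 4.24, 1.24 and 1.26 in sham hearts, Uty was 4.67, 4.29 and 7.97 in CKD hearts, against 4.48, 2.08 and 2.17 in sham hearts, and Kdm5d was 3.97, 2.73 and 5.52 in CKD hearts, against 3.67, 1.96 and 1.89 in sham hearts. The lowest level on any array was 0.97, so Eif2s3y was near the floor in sham 2 and sham 3. Array medians lay between 4.83 and 4.86, and only CKD 3 exceeded them for these 3 genes. Each of the 3 was lowest in sham 2 and sham 3, the arrays in which Rbm3 and Cirbp were also lowest, and highest in CKD 3. Their part in the differences of Rbm3, an X-linked gene, and of Cirbp was not tested. All 3 missed the criterion without sham 2 (2.57 for Eif2s3y, 2.32 for Uty and 1.29 for Kdm5d) or without sham 3 (2.58, 2.36 and 1.26), and Eif2s3y and Kdm5d also without CKD 3 (1.78 and 0.84), and Kdm5d without CKD 1 (1.62). None of the 3 passed with trend and robust eBayes or with each gene tested alone.

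**Figure D5:**
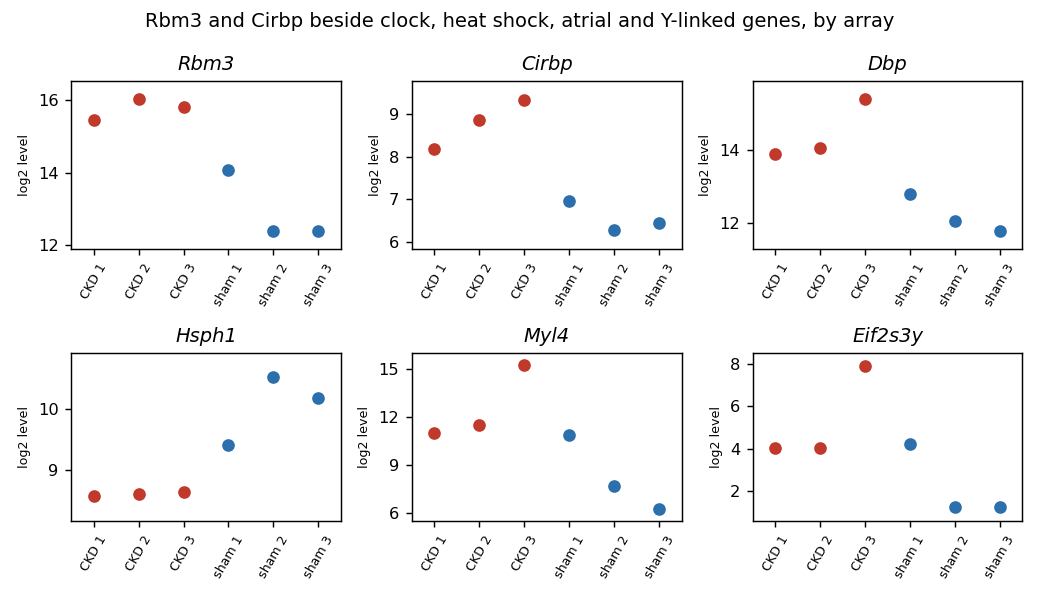
Log2 level of Rbm3, Cirbp, Dbp (clock output), Hsph1 (heat shock), Myl4 (atrial muscle) and Eif2s3y (Y chromosome) in each array, with CKD arrays left of sham arrays. Sham 1 is the sham array nearest to the CKD arrays for Rbm3, Cirbp, Dbp, Hsph1 and Myl4. Eif2s3y is 4.24 in sham 1, within the range of the CKD arrays, against 1.24 and 1.26 in the other sham arrays.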

How the data were processed

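Heart RNA of 6 mice was read on Clariom S arrays (Affymetrix), 1 per mouse. The authors deposited log2 expression levels made by robust multiarray averaging (RMA; its version is not given in the sources used here), which corrects the background, equalises the distributions of the arrays and summarises each probe set. No detection calls or scanner values were used here. Array medians lay between 4.83 and 4.86 and with 3 arrays a group their number sets the precision. Of 22206 probe sets, 19572 had 1 gene symbol, 0 had several and 2634 had none. For the 55 genes with more than 1 probe set the brightest was kept, which left 19505 genes.

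Rbm3, Cirbp and all gene lists were chosen with earlier results of these data known. Groups were taken from the sample labels. All genes were fitted with limma 3.58.1 (lmFit and eBayes) in R 4.3.3, CKD minus sham, with no covariate, and p-values were adjusted over all genes by Benjamini-Hochberg. The criterion, from the limits in the methods, asked for a fold over 1.5 and p under 0.05 before adjustment. The genes named are Rbm3 and Cirbp, the 5 most and 3 least correlated genes of each among genes not below the median level (predicted genes, odorant receptors and small RNAs left out), the members of each list past the criterion (at most 6), a few members named whatever their values, and neighbours past the criterion. All markers past the criterion were named or counted. Alternatives were an equal-variance test of each gene alone, trend and robust eBayes, array weights, repeated quantile normalization, cyclic loess, median centring, a filter on the dimmest 25% of genes, the mean of probe sets, a replicate block, an adjusted p limit and each array left out in turn. The fit was tested on simulated data with known changes. Tables and plots were made in Python 3.11.15 with matplotlib 3.10.9. Names, gene order and promoter sequences came from RefSeq (GRCm38.p6). Rbm3-ps, a pseudogene of Rbm3, is listed there, and whether the Rbm3 probes also bind it was not examined.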

Additional observations from a re-analysis of the deposited data

How the results depend on the processing

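The log2 differences of Rbm3 and Cirbp kept their sign, and both passed the criterion, in 16 of 16 settings with the limits of fold and unadjusted p. As the pair was chosen on this contrast, these refits of the same arrays describe it and are no test of it. Neither gene had an adjusted p under 0.05 in the main limma fit. Array weights gave 3.18 for Rbm3 and 2.55 for Cirbp. Leaving out 1 array gave 2.54 to 3.39 for Rbm3 and 1.96 to 2.53 for Cirbp. Counts moved more. Of all genes, 610 were higher and 623 lower. An equal-variance t-test of each gene alone gave 307 higher and 318 lower. The methods name a t-test for comparing groups, but no test for the arrays. With array weights the counts were 1023 and 1028, and with an adjusted p under 0.05 and no fold limit 2 and 0. In limma, 1783 genes had an unadjusted p under 0.05. Leaving out 1 array gave 472 to 1091 higher, most without CKD 1, and 497 to 957 lower, most without sham 1 (957) and CKD 1 (946).

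For the lists, the t-test of each gene alone gave 3 hnRNP genes, 1 SR or CLK gene and 0 regulators and targets. It also gave 5 heat shock genes and 2 hypoxia genes. Array weights gave 8 hnRNP, 1 cold shock domain, 2 stress granule and 13 heat shock genes. An adjusted p under 0.05 left 0 hnRNP, SR or CLK, regulator, extracellular CIRP, heat shock, clock or hypoxia genes, against 5, 4, 2, 2, 8, 10 and 6 by the criterion. Leaving out 1 array gave 2 to 8 hnRNP genes, 1 to 4 SR or CLK genes, 0 to 1 cold shock domain genes, 0 to 3 regulators and targets, 2 to 3 extracellular CIRP genes, 0 to 2 stress granule genes, 4 to 13 heat shock genes, 8 to 12 clock genes and 2 to 7 hypoxia genes. The cause was not tested, beyond the fewer arrays in each such fit. Trend and robust eBayes, both normalizations, centring, the filter on dim genes and the mean of probe sets left the counts of all genes and of these 9 lists within 1.5 times of their values. Marker counts, followed after seeing the data, were less stable. Trend and robust eBayes left 0 of the 3 atrial, 0 of the 3 Y-linked and 0 of the 1 red cell markers. The t-test of each gene alone did the same. It also left 1 of 2 adipocyte, 1 of 2 smooth muscle and 2 of 4 macrophage markers. Array weights gave 5 atrial, 5 adipocyte and 4 smooth muscle markers as higher. Without the dimmest 25% of genes 1 adipocyte and 2 Y-linked markers were higher.

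With the replicate number as a block, the differences were 2.83 for Rbm3 (SE 0.44) and 2.22 for Cirbp (SE 0.34), with 602 genes higher and 599 lower. Of the listed genes past the criterion, Clk1, C1qb and Sln did not pass with the block. A legend of the study speaks of pairs of sham and CKD mice, with no word on what pairs them. Same-numbered CKD and sham arrays did not deviate together (correlations of -0.184, -0.0251 and -0.187 for numbers 1, 2 and 3), no array correlated best with its own number, and so the numbers were not taken to pair the mice. With 3 arrays a group, differences near the median SE of 0.23 were not detectable, and levels near the floor of the scale carry no detection call.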
